A study of Mus musculus with 11 samples.

Results

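The 10 genes described here, Csf1r, Cd68, Cd163, Mrc1, C1qa, C1qb, C1qc, Lyz2, Cx3cr1 and Cd14, are markers of tissue macrophages and were chosen by name. All 10 were among the 24411 genes of the count table, and all 10 passed the filter on low counts in every comparison. Their read counts were taken from testis RNA of mice aged 20 weeks, sequenced after selection of polyadenylated RNA. The 4 WT samples served as the shared control for 4 samples of Irp1-/- testis and 3 samples of Irp2-/- testis. In Irp1-/- mice the gene Aco1, which encodes iron regulatory protein 1, is disrupted in all tissues (allele Aco1tm1Roua, bred on a C57Bl/6J background), and WT littermates came from crosses of heterozygous mice. The Irp2-/- samples carry a deficiency of iron regulatory protein 2, encoded by Ireb2, and the methods of the study do not describe how these mice were bred. Every testis was freed of its capsule before RNA extraction, and no cell type was sorted, so a macrophage transcript is seen only as its share of the RNA of the whole organ. Fewer macrophages and less of the RNA per macrophage cannot be told apart in such samples. The Irp1 knockout affects all cell types, macrophages included, and the methods do not say in which tissues Irp2 is lost.

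Macrophages of the adult testis lie between the seminiferous tubules, close to the Leydig cells, and on the tubule wall. They depend on the receptor encoded by Csf1r for survival, and they clear debris, present antigen and secrete complement components. Interstitial macrophages are known for high Mrc1 and Csf1r and peritubular macrophages for MHC class II. Macrophages also take up hemoglobin and store and release iron, which ties them to the iron regulatory proteins that bind the transcripts of ferritin and of the transferrin receptor.

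The genes lie on 7 chromosomes. C1qb (136880126 to 136886200), C1qc (136889801 to 136892936) and C1qa (136895916 to 136898844) form a cluster on chromosome 4 of GRCm38.p6. Mrc1 lies on chromosome 2 (14229414 to 14332023), Cd163 on chromosome 6 (124304636 to 124330529), Cx3cr1 on chromosome 9 (120048683 to 120068296), Lyz2 on chromosome 10 (117277541 to 117282272) and Cd68 on chromosome 11 (69664213 to 69666170). Of these, Cx3cr1 shares its chromosome with the targeted gene Ireb2, at a distance of 65.2 Mb, and C1qa shares its chromosome with Aco1, at 96.8 Mb.

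Macrophage genes are classic targets of PU.1, the lineage factor encoded by Spi1, whose binding site contains the letters GAGGAA. These letters and their reverse complement TTCCTC were searched in the 250 bases upstream of each start site in RefSeq promoters of GRCm38.p6. Of 32536 promoters, 23.4% held the letters at least once. A promoter entry was present for 7 of the 10 genes. Mrc1 held 3 matches and C1qb, C1qc and Cd68 held 1 each, while no match was found in the windows of Cd163, Cx3cr1 and Lyz2. The windows of the neighbouring C1qb and C1qc and of Mrc1 are shown 5′ to 3′ on the strand of the gene, since the C1q genes and Mrc1 are described sample by sample further on. Capitals mark the searched letters, and a match is a description of sequence, with no binding measured.
C1qb (chr4:136886201-136886450, minus strand): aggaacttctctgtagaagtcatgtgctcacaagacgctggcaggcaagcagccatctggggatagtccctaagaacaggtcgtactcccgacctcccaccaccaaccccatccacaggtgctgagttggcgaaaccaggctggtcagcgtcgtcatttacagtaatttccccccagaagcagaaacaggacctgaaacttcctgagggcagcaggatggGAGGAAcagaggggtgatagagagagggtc
C1qc (chr4:136892915-136893164, minus strand): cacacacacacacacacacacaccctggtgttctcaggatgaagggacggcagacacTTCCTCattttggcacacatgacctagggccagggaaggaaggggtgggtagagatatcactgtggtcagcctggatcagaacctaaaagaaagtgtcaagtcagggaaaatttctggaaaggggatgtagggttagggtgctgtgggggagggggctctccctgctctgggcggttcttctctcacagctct
Mrc1 (chr2:14229164-14229413, plus strand): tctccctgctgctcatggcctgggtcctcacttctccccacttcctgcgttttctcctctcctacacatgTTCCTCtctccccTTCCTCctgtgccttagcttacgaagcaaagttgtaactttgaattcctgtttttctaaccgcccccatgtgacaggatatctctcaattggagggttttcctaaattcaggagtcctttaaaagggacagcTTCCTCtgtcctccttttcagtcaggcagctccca
The first base of the match lay 30 bases before the start site in C1qb and 193 bases before it in C1qc. In Mrc1 the matches began 180, 167 and 35 bases before the start site.

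Total counts per sample ranged from 15902473 to 22451417. Replicates of one genotype differed beyond sampling noise in all 15 pairs, so each was counted as a sample of its own. WT replicate 2 stood apart from the other WT samples in several macrophage genes and in MHC class II, and the comparisons with WT are also given without it. The labels number the samples but do not say more of how they were collected, so p-values measure the spread between these samples. As a check of the labels, Aco1 was measured at 11.8 ± 1.37 CPM in WT testis (SD, n = 4) and at 8.60 ± 0.636 CPM in Irp1-/- testis (SD, n = 4), and edgeR called it lower (log2 fold change -0.45, adjusted p = 0.0158). All 4 Irp1-/- samples lay below all 4 WT samples, but transcript remained, and the call was lost without Irp1-/- replicate 6 (adjusted p = 0.0683) and without WT replicate 2, 3 or 4 (adjusted p = 0.0711, 0.0520 and 0.0750, edgeR). For Ireb2, WT testis gave 139.6 ± 5.91 CPM (SD, n = 4) and Irp2-/- testis 62.1 ± 0.806 CPM (SD, n = 3), with an adjusted p of 2.8e-13 by edgeR. CPM (read counts scaled to the library size) were normalized by TMM over the 11 samples.

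Macrophage transcripts were present in every sample at low to middle levels. Levels of different genes were compared as CPM per kilobase of exon. In WT testis (SD, n = 4) the highest level per kilobase was that of C1qb, 7.93 ± 1.53, followed by Lyz2 with 7.11 ± 1.11, C1qa with 7.02 ± 2.06, Mrc1 with 6.15 ± 0.353 and C1qc with 4.99 ± 0.921. Neighbours in this group overlapped within their spread. A gap followed, and Csf1r (1.499 ± 0.231 CPM per kilobase) and Cd68 (1.36 ± 0.310) overlapped with each other but not with C1qc above or with Cx3cr1 (0.780 ± 0.0930) below. Cd163 (0.382 ± 0.176) and Cd14 (0.375 ± 0.151) were lowest and could not be ordered. Among the 15354 tested genes with a known exon length, 59.1% had a lower level per kilobase in WT than C1qb and 8.10% a lower level than Cd14. Mrc1, the longest of these transcripts, gave 37.2% to 47.3% of the summed CPM of the 10 genes in single samples.

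The depth behind these values differed widely between the genes. Mrc1 rested on 544 to 796 reads per sample and Cd14 on 5 to 24. In WT testis the coefficient of variation of Cx3cr1 was 11.9%, against 12.8% for read counting alone. For Cd68 and Cd14 it was 22.9% and 40.3%, against 18.3% and 30.5%. The spread of these 3 genes in WT was thus near what counting gives at this depth. C1qa varied by 29.4% (counting 8.94%) and Cd163 by 46.2% (counting 18.5%), well beyond counting, while Mrc1 varied by 5.74% (counting 4.18%).

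**Figure D1:**
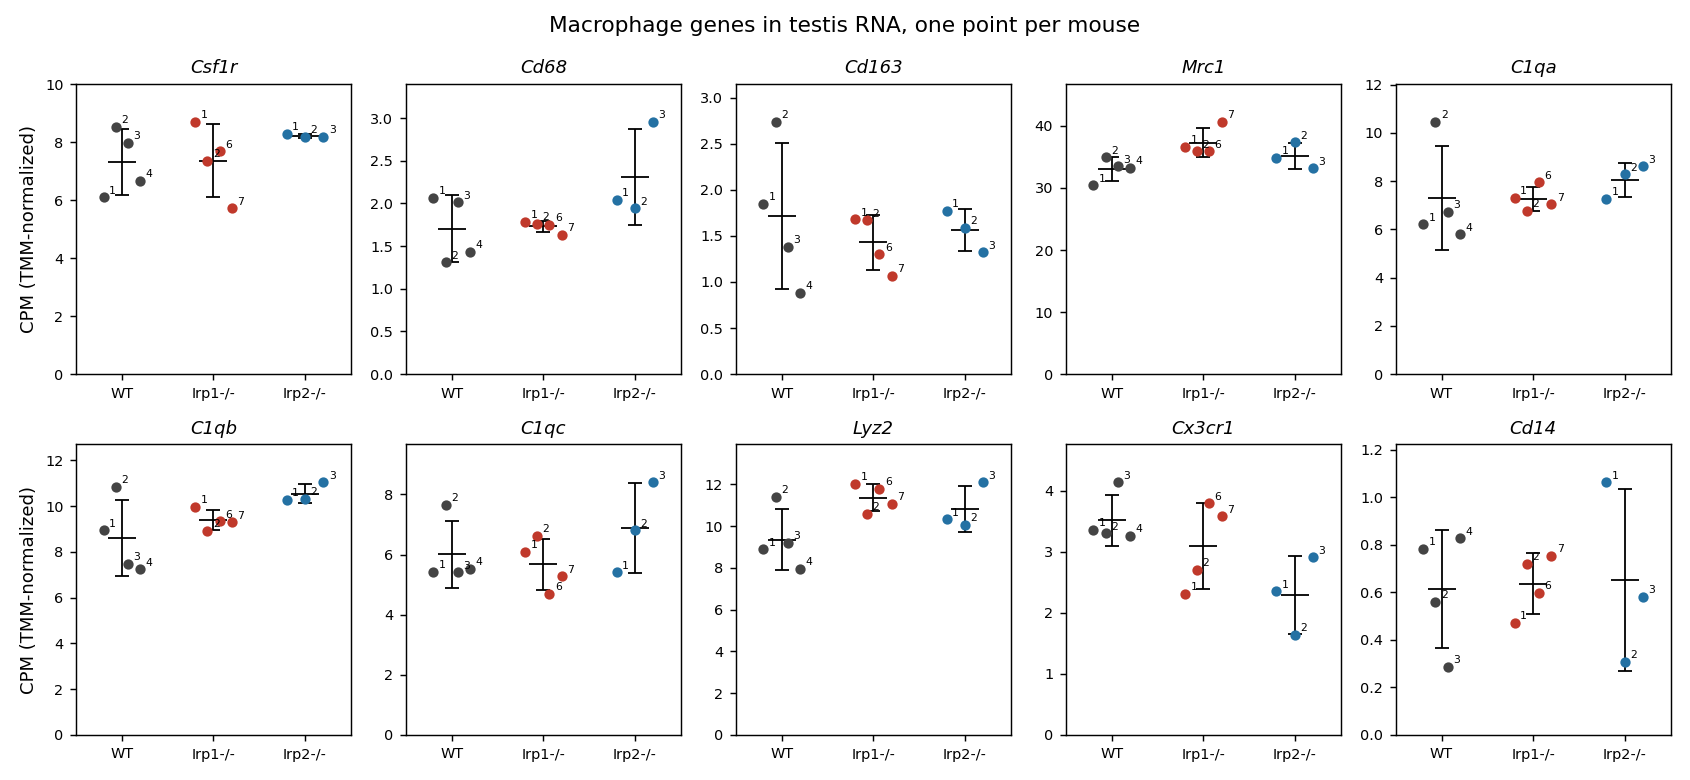
CPM (y axis, TMM-normalized, linear from 0, own scale in each panel) of the 10 macrophage genes in WT, Irp1-/- and Irp2-/- testis. Points are samples with their replicate numbers, and lines are the mean ± SD. WT replicate 2 is the highest WT sample in 7 of the 10 panels.

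The first comparison asked whether loss of Irp1 changed the macrophage transcripts. None of the 10 genes was called in Irp1-/- against WT testis by edgeR (adjusted p under 0.05) or DESeq2, where edgeR called 1.02% of 16002 genes tested and DESeq2 1.38% of the 12720 genes to which it gave an adjusted p. At an unadjusted p under 0.05, 2 genes stood out by either tool, Mrc1 and Lyz2, beside 12.1% of all genes by edgeR. DESeq2 gave no adjusted p for Cd68, Cd163 and Cd14. Fold changes were above 0 for 6 genes and below 0 for 4, beside 49.7% of all genes above 0. The median log2 fold change was 0.02, beside -0.00079 over all genes tested.

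Loss of Irp2 was addressed in the second comparison, which shared the 4 WT samples with the first. None of the 10 genes was called by edgeR or DESeq2 in Irp2-/- against WT testis, where edgeR called 1.21% of 16154 genes and DESeq2 1.07% of 17472. At an unadjusted p under 0.05, Cx3cr1 and C1qb stood out by either tool, beside 9.42% of all genes by edgeR. Fold changes were above 0 for 8 genes and below 0 for 2, beside 51.3% of all genes above 0. The median log2 fold change was 0.16, beside 0.0033 over all genes.

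A direct contrast of the knockouts called none of the 10 genes by edgeR or DESeq2 either, where edgeR called 4.69% of 16281 genes and DESeq2 3.83% of 16719. No macrophage gene had an unadjusted p under 0.05 by either tool, beside 16.3% of all genes by edgeR. In Irp1-/- testis 3 genes were higher and 7 lower than in Irp2-/- testis, beside 49.4% of all genes higher. The median log2 fold change was -0.14, beside -0.0019 over all genes. The half-width of the 95% interval of the log2 fold change ran from 0.117 for Mrc1 in Irp1-/- against WT to 0.854 for Cd14 in Irp2-/- against WT, so the data bound the change of Mrc1 tightly and that of Cd14 hardly at all.

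**Figure D2:**
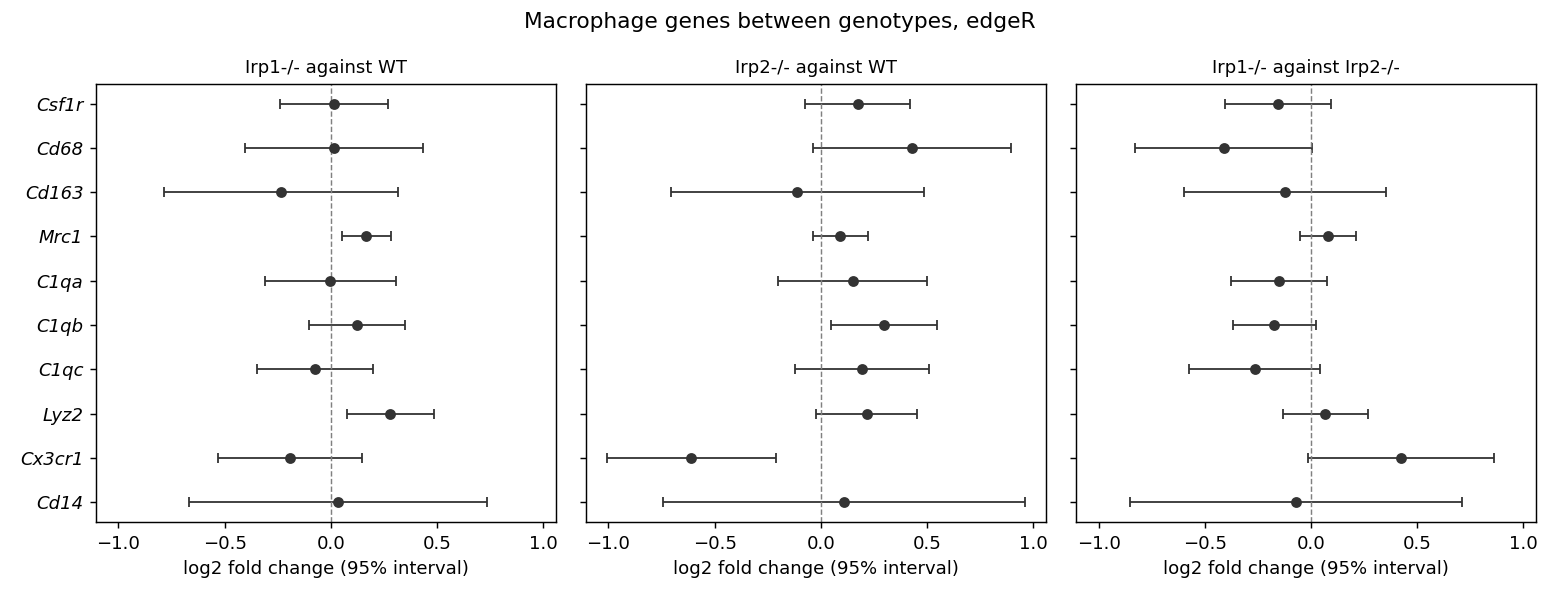
Log2 fold changes (x axis) of the 10 macrophage genes (rows) in the 3 comparisons (panels), from edgeR, with 95% intervals as bars and no change as the dashed line. Intervals without 0 belong to Mrc1 and Lyz2 in Irp1-/- against WT and to C1qb and Cx3cr1 in Irp2-/- against WT, and none of these passed after adjustment.

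Csf1r encodes the receptor for the growth factors CSF1 and IL-34, on which macrophage survival depends, and lies on chromosome 18, as does Cd14. Csf1r had 6.10 to 8.53 CPM in WT, 5.72 to 8.72 CPM in Irp1-/- and 8.18 to 8.29 CPM in Irp2-/- testis. The 3 genotypes overlapped, and the 3 Irp2-/- samples lay closer together (coefficient of variation 0.717%) than read counting alone gives on average (7.73%). Log2 fold changes were 0.02 in Irp1-/- (95% interval -0.24 to 0.27) and 0.17 in Irp2-/- testis (-0.07 to 0.42), each against WT.

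The receptor for the membrane-bound chemokine fractalkine is encoded by Cx3cr1, which marks monocytes and some tissue macrophages. It had 3.36, 3.30, 4.14 and 3.26 CPM in WT replicates 1 to 4 and 2.35, 1.64 and 2.91 CPM in Irp2-/- replicates 1 to 3. All 3 Irp2-/- samples lay below all 4 WT samples, a separation in this direction shown by 4.74% of all genes. The log2 fold change was -0.61 (standard error 0.192, 95% interval -1.01 to -0.21) with an unadjusted p of 0.00424 and an adjusted p of 0.167 (edgeR), and the adjusted p was lowest, 0.0792, without Irp2-/- replicate 3. These values rest on 32 to 55 reads in Irp2-/- and 53 to 72 reads in WT samples. In Irp1-/- testis Cx3cr1 had 2.31, 2.71, 3.80 and 3.58 CPM in replicates 1, 2, 6 and 7. That group overlapped both others, with log2 fold changes of -0.19 against WT (adjusted p = 0.701, edgeR) and 0.42 against Irp2-/- (unadjusted p = 0.058, adjusted p = 0.33, edgeR).

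Mrc1 encodes the mannose receptor CD206, an endocytic receptor for glycoproteins. Its levels were 30.4, 34.9, 33.5 and 33.3 CPM in WT replicates 1 to 4 and 36.6, 35.9, 35.9 and 40.7 CPM in Irp1-/- replicates 1, 2, 6 and 7. All 4 Irp1-/- samples lay above all 4 WT samples, as did 3.37% of all genes. The difference was small, a log2 fold change of 0.17 (standard error 0.0573, 95% interval 0.05 to 0.29, or 1.12-fold), with an unadjusted p of 0.00652 and an adjusted p of 0.181 (edgeR). Irp2-/- testis had 34.8, 37.4 and 33.2 CPM, which overlapped both other groups. Against WT the log2 fold change of Mrc1 was then 0.09 (95% interval -0.04 to 0.22).

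Cd163 and Cd68 are further endocytic and lysosomal markers of macrophages. Cd163, the receptor for complexes of haptoglobin and hemoglobin, had 0.883 to 2.74 CPM in WT, 1.07 to 1.68 CPM in Irp1-/- and 1.32 to 1.77 CPM in Irp2-/- testis. The WT samples thus covered the range of both knockouts, and the log2 fold changes of -0.23 in Irp1-/- and -0.11 in Irp2-/- testis had 95% intervals from -0.78 to 0.32 and from -0.71 to 0.49. Cd68, a lysosomal membrane glycoprotein, had 2.07, 1.31, 2.01 and 1.44 CPM in WT replicates 1 to 4, 1.79, 1.76, 1.75 and 1.63 CPM in Irp1-/- replicates 1, 2, 6 and 7, and 2.04, 1.94 and 2.96 CPM in Irp2-/- replicates 1 to 3. Every Irp2-/- sample was above every Irp1-/- sample for Cd68, while WT overlapped both. Between the knockouts the log2 fold change of Cd68 was -0.41 (95% interval -0.83 to 0.0073) with an unadjusted p of 0.0538 and an adjusted p of 0.317 (edgeR). Without Irp2-/- replicate 3 it was -0.20 (adjusted p = 0.771, edgeR).

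Complement C1q, the recognition molecule of the classical pathway, is built from the chains encoded by C1qa, C1qb and C1qc, which tissue macrophages express together. C1qa had 6.21, 10.5, 6.73 and 5.80 CPM in WT replicates 1 to 4, 7.30, 6.77, 7.94 and 7.04 CPM in Irp1-/- replicates 1, 2, 6 and 7, and 7.27, 8.28 and 8.62 CPM in Irp2-/- replicates 1 to 3. WT replicate 2 was the highest of all 11 samples for C1qa, and the other 3 WT samples lay below the lowest knockout sample, 6.77 CPM. Log2 fold changes of C1qa were -0.0018 in Irp1-/- (95% interval -0.31 to 0.31) and 0.15 in Irp2-/- testis (-0.20 to 0.50).

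C1qb had 8.95, 10.8, 7.47 and 7.23 CPM in WT replicates 1 to 4 and 10.3, 10.3 and 11.05 CPM in Irp2-/- replicates 1 to 3. The Irp2-/- samples lay above WT replicates 1, 3 and 4 but not all above WT replicate 2. The log2 fold change was 0.30 (standard error 0.12, 95% interval 0.05 to 0.55), with an unadjusted p of 0.0209 and an adjusted p of 0.369 (edgeR). Irp1-/- testis had 9.98, 8.93, 9.34 and 9.30 CPM of C1qb, all below the 3 Irp2-/- samples. That difference between the knockouts did not pass, with a log2 fold change of -0.17 (95% interval -0.37 to 0.02) and an adjusted p of 0.389 (edgeR). For Cd68 and C1qb together, 2 of the 10 genes were lower without overlap in Irp1-/- than in Irp2-/- testis, beside 7.25% of all genes.

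C1qc had 5.42, 7.66, 5.40 and 5.52 CPM in WT replicates 1 to 4, 6.09, 6.63, 4.70 and 5.28 CPM in Irp1-/- replicates 1, 2, 6 and 7, and 5.41, 6.80 and 8.40 CPM in Irp2-/- replicates 1 to 3. The 3 genotypes overlapped, and the 95% interval of the log2 fold change included 0 in every comparison. The ratio of C1qb to C1qa reads lay between 1.04 and 1.44 and that of C1qc to C1qa reads between 0.591 and 0.98 in single samples.

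Lyz2 encodes the lysozyme of macrophages, an enzyme that cleaves bacterial cell walls. Its levels were 8.89, 11.4, 9.20 and 7.95 CPM in WT replicates 1 to 4 and 12.0, 10.6, 11.8 and 11.1 CPM in Irp1-/- replicates 1, 2, 6 and 7. All 4 Irp1-/- samples were above WT replicates 1, 3 and 4, and WT replicate 2 fell among them. The log2 fold change was 0.28 (standard error 0.0999, 95% interval 0.08 to 0.49, or 1.22-fold), with an unadjusted p of 0.00896 and an adjusted p of 0.21 (edgeR). Irp2-/- testis had 10.3, 10.1 and 12.1 CPM, and the log2 fold change against WT was 0.22, with an adjusted p of 0.607 by edgeR. Lyz1, a close copy of Lyz2 whose reads could be confused with it, stayed between 0.0575 and 0.28 CPM.

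Cd14 encodes a co-receptor that passes bacterial lipopolysaccharide to TLR4 and was the shallowest of the 10 genes. It had 0.287 to 0.828 CPM in WT, 0.473 to 0.754 CPM in Irp1-/- and 0.307 to 1.06 CPM in Irp2-/- testis. The genotypes overlapped, and at this depth the change was hardly bounded, with a 95% interval of the log2 fold change in Irp1-/- against WT from -0.67 to 0.74.

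**Figure D3:**
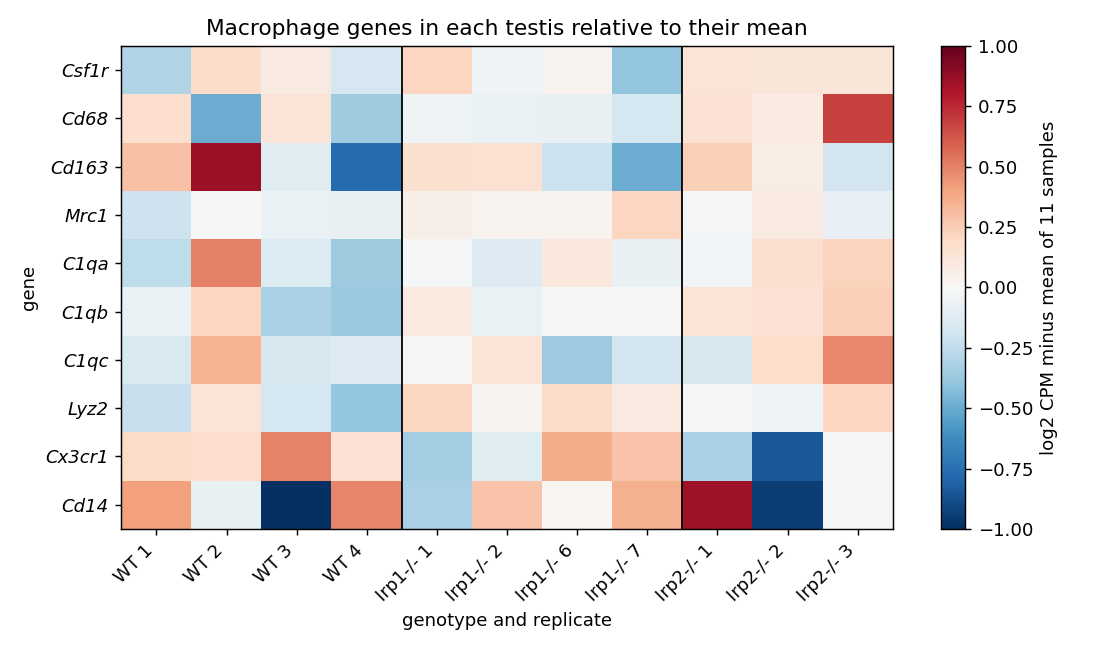
Log2 CPM of each macrophage gene (rows) in each of the 11 samples (columns) as the difference from the gene's mean over all samples, with colours limited to -1 and 1. WT replicate 2 and Irp2-/- replicate 3 carry high values in many genes and WT replicate 4 low values, while the rows of Cx3cr1 and Cd14 follow another pattern.

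Single samples stood apart across several of the genes. WT replicate 2 was the highest WT sample for 7 of the 10 genes and the lowest for 1, Cd68. WT replicate 4 was the lowest of all 11 samples for 4 genes, and Irp2-/- replicate 3 the highest of all 11 for 4. The mean z score over the 10 genes, in standard deviations over the 11 samples, was 0.676 in WT replicate 2, 0.667 in Irp2-/- replicate 3 and -0.900 in WT replicate 4. Summed CPM of the 10 genes reached 91.8 in WT replicate 2 and lay between 72.9 and 78.1 in the other 3 WT samples. In Irp1-/- it was 83.0 to 86.9 and in Irp2-/- testis 83.6 to 89.3, so both knockouts lay between WT replicate 2 and the rest of the WT samples.

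Every sample was left out in turn, and WT replicate 2 is singled out because of these values. Leaving out a sample chosen for high values in most of these genes favours higher knockout values by selection. The counts that follow are thus a description, and the shares over all genes are no matched reference, since the choice did not rest on those genes. Without it, none of the 10 genes was called by edgeR in either comparison with WT. The number with an unadjusted p under 0.05 by edgeR was then 3 in Irp1-/- (10% of all genes) and 5 in Irp2-/- testis (7.75% of all genes). In Irp1-/- testis 3 genes were higher without overlap (4.92% of all genes), and in Irp2-/- testis 4 were higher (6.4%) and 1 was lower (6.17%). The median log2 fold change of the 10 genes was 0.09 in Irp1-/- and 0.28 in Irp2-/- testis. The log2 fold change of Lyz2 in Irp1-/- testis was then 0.39, at an adjusted p of 0.0781, and that of C1qb in Irp2-/- testis 0.42, at an adjusted p of 0.103 (both edgeR).

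The genes did not rise and fall as one block over the 11 samples. Over the 45 pairs of genes, the median Pearson correlation of log2 CPM was 0.14, from -0.50 to 0.79, and 24 pairs were above 0. The closest pair was C1qa and C1qb, with r = 0.792 (permutation test with 100000 resamples, two-sided, p = 0.0036, adjusted over the 45 pairs 0.117) and Spearman's rho = 0.927 (permutation p = 0.00014, adjusted 0.0063). Without WT replicates 2 and 4, the samples farthest from the median of C1qa, r was 0.708. For C1qb and Lyz2, r = 0.775 (permutation p = 0.0052, adjusted 0.117) fell to 0.448 without WT replicates 3 and 4, the samples farthest from the median of C1qb, so this relation rested in part on those samples. None of the 45 Pearson correlations passed adjustment, and 4 had an unadjusted permutation p under 0.05. Cx3cr1 was positively correlated with 1 of the other 9 genes, Cd14 with 2 and Mrc1 with 3. The spread of Cx3cr1, Cd68 and Cd14 in WT was near that of read counting, which pulls their correlations toward 0. Whether the transcripts vary together beneath that noise cannot be read from these pairs. Every genotype had fewer than 6 samples, so no correlation within a genotype was computed.

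Outside all gene lists used here, genes whose log2 CPM was most like the mean z score of the 10 genes over the 11 samples included Acap3 (r = 0.918, rho = 0.90), Coro1a (r = 0.901, rho = 0.673), Clec4a1 (r = 0.869, rho = 0.90) and 1700109G15Rik (r = 0.867, rho = 0.845). Of these, Coro1a encodes an actin-binding protein of leukocytes and Clec4a1 a lectin receptor of myeloid cells. The cells that express Acap3, the closest gene, and 1700109G15Rik were not examined, so the ranking does not show which cells the likeness reflects. Coro1a and Clec4a1 rested on few reads, 8 to 33 and 3 to 26 per sample. The genes named are the top of a ranking over all genes that passed the filter. Such a ranking of 11 samples gives high correlations by selection alone, and the likeness was not tested.

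Genes around each receptor were examined as lists. For reference, edgeR called 1.02% of all genes in Irp1-/- against WT, 1.21% in Irp2-/- against WT and 4.69% between the knockouts. The shares at an unadjusted p under 0.05 were 12.1%, 9.42% and 16.3%. Among 13 genes for the ligands of CSF1R and the lineage factors of macrophages, 12 were tested in each comparison with WT and 13 between the knockouts, and none was called by edgeR or DESeq2. At an unadjusted p under 0.05 by edgeR there was 1 gene in each comparison with WT and 2 between the knockouts. The smallest p belonged to Maf, a transcription factor of tissue macrophages. Maf had 2.40, 2.31, 1.90 and 2.26 CPM in WT replicates 1 to 4 and 3.46, 3.22 and 3.17 CPM in Irp2-/- replicates 1 to 3. The groups did not overlap, as for 4.57% of all genes in this direction, with a log2 fold change of 0.57 (standard error 0.172) and an adjusted p of 0.137 (edgeR). In Irp1-/- testis, with 2.84 to 2.997 CPM, every sample was also above the WT samples, as for 3.37% of all genes.

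For fractalkine and the proteases that release it, 3 genes were tested in each comparison and none was called by edgeR or DESeq2, with 1 gene at an unadjusted p under 0.05 by edgeR, in Irp1-/- against WT. That gene was Cx3cl1, the ligand of Cx3cr1. It had 5.26, 4.36, 4.31 and 5.13 CPM in WT replicates 1 to 4 and 3.62, 3.699, 2.95 and 4.21 CPM in Irp1-/- replicates 1, 2, 6 and 7. All Irp1-/- samples lay below all WT samples, as for 3.22% of all genes, with a fitted log2 difference of -0.41 (standard error 0.14) and an adjusted p of 0.187 by edgeR. In Irp2-/- testis, where Cx3cr1 itself was lowest, Cx3cl1 had 3.38 to 4.57 CPM and overlapped WT.

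The other complement genes comprised 24 genes, of which 18 were tested in Irp1-/- against WT and 20 in the other comparisons. None was called by edgeR or DESeq2 against WT, with 4 genes in Irp1-/- and 5 in Irp2-/- testis at an unadjusted p under 0.05 by edgeR. Fold changes were above 0 for 14 of 18 genes in Irp1-/- (median log2 fold change 0.11) and for 17 of 20 in Irp2-/- testis (median 0.18). Over all genes tested the shares above 0 were 49.7% and 51.3%. Without WT replicate 2, 1 gene was called in each of these comparisons, Serping1, which encodes the inhibitor of the C1 proteases and is named here because of this call. Between the knockouts edgeR called Cd59a, an inhibitor of the membrane attack complex, which was lower in Irp1-/- (11.9 ± 0.774 CPM, SD, n = 4) than in Irp2-/- testis (15.1 ± 1.42 CPM, SD, n = 3). Its log2 fold change was -0.34 (adjusted p = 0.0318, edgeR), and neither DESeq2 (adjusted p = 0.0701) nor the edgeR fit of all 11 samples (adjusted p = 0.113) called it. The edgeR call was also lost without Irp1-/- replicate 1 (adjusted p = 0.121) or 6 (0.0639) and without Irp2-/- replicate 2 (0.0822) or 3 (0.187).

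Of 15 genes of CD14 and TLR4 signalling, 11 or 12 were tested, and edgeR called 1, Lbp, in Irp1-/- against WT testis. In that comparison 5 of 11 had an unadjusted p under 0.05 by edgeR, beside 12.1% of all genes. Without overlap 2 were higher in Irp1-/- testis, beside 3.37% of all genes. Lbp encodes the carrier that hands lipopolysaccharide to CD14. It was higher in Irp1-/- (7.502 ± 0.878 CPM, SD, n = 4) than in WT testis (4.94 ± 1.05 CPM, SD, n = 4), without overlap, and the log2 fold change was 0.60, at an adjusted p of 0.0168 (edgeR). The call was lost without Irp1-/- replicate 1 (adjusted p = 0.127, edgeR) and without WT replicate 2, 3 or 4 (0.0595, 0.0675 and 0.0811). None of these genes was called by edgeR or DESeq2 in Irp2-/- against WT or between the knockouts, with 1 and 2 genes at an unadjusted p under 0.05 by edgeR.

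Among 20 scavenger receptors and genes of iron recycling, 15 were tested, and none was called by edgeR or DESeq2 in Irp1-/- against WT testis, with 3 at an unadjusted p under 0.05 by edgeR. Lrp1, a receptor for heme bound to hemopexin among other ligands, was higher in Irp2-/- (56.2 ± 1.498 CPM, SD, n = 3) than in WT testis (46.6 ± 3.62 CPM, SD, n = 4), and the log2 fold change was 0.27, at an adjusted p of 0.0184 (edgeR). That call was lost without Irp2-/- replicate 2 (adjusted p = 0.101, edgeR) and without WT replicate 1 or 2 (0.0610 and 0.102). Fth1, the ferritin heavy chain whose translation the iron regulatory proteins control, was higher in Irp1-/- (157.7 ± 6.18 CPM, SD, n = 4) than in Irp2-/- testis (131.0 ± 9.53 CPM, SD, n = 3), and the log2 fold change was 0.26, at an adjusted p of 0.00499 (edgeR). Without Irp2-/- replicate 2 its adjusted p was 0.0676. Both genes are expressed by many cell types of the testis, and which cells gave these differences was not tested.

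A further 25 macrophage and myeloid genes were set beside the 10. They were measured in the same samples and chosen with earlier results of these data known, so they are no independent check. Of these, 19 were tested in Irp1-/- and 20 in Irp2-/- against WT, and none was called by edgeR or DESeq2, with 3 and 1 at an unadjusted p under 0.05 by edgeR. Their median log2 fold changes were 0.02 in Irp1-/- and 0.11 in Irp2-/- testis. Between the knockouts 21 were tested and 2 were called by edgeR. Apoe, an apolipoprotein that macrophages secrete, was higher in Irp1-/- than in Irp2-/- testis (log2 fold change 0.23, adjusted p = 0.0325, edgeR). The groups overlapped, with 70.8 CPM in the lowest Irp1-/- and 71.2 CPM in the highest Irp2-/- sample. The Apoe call was lost without Irp1-/- replicate 1 or 6 (adjusted p = 0.156 and 0.0719) and without Irp2-/- replicate 1 or 2 (0.103 and 0.186). Which cells gave the difference in Apoe was not tested. Ncf1, a subunit of the phagocyte NADPH oxidase, was lower in Irp1-/- (0.597 ± 0.138 CPM, SD, n = 4) than in Irp2-/- testis (1.45 ± 0.459 CPM, SD, n = 3), by -1.24 on the log2 scale (edgeR, adjusted p = 0.0168), a call lost without Irp1-/- replicate 1 (adjusted p = 0.0503) and without Irp2-/- replicate 2 or 3 (0.139 and 0.0724). Ncf1 rested on few reads, 7 to 17 per Irp1-/- sample and 21 to 35 per Irp2-/- sample.

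MHC class II genes, which antigen-presenting cells including some macrophages, dendritic cells and B cells express, differed between samples of one genotype. Cd74, the invariant chain, had 8.05, 21.2, 9.31 and 9.27 CPM in WT replicates 1 to 4, 12.7, 12.9, 9.59 and 11.6 CPM in Irp1-/- replicates 1, 2, 6 and 7, and 18.8, 19.0 and 15.9 CPM in Irp2-/- replicates 1 to 3. WT replicate 2 was above all other samples, and the other WT samples were below all others. Of 7 genes, 6 were tested, and none was called by edgeR or DESeq2 in Irp1-/- or in Irp2-/- against WT, with none at an unadjusted p under 0.05 by edgeR.

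In Irp1-/- against Irp2-/- testis, 4 of the 6 were lower by edgeR, which called 4.69% of all genes, and DESeq2, which called 3.83%, called 2 of them, H2-Aa and Cd74. The log2 fold changes were -0.62 for Cd74 (adjusted p = 4.5e-04), -0.57 for H2-Aa (0.0163), -0.51 for H2-Eb1 (0.0183) and -0.37 for H2-Ab1 (0.0437), the last 3 being chains of the class II molecules. The call of Cd74 held without any single sample (adjusted p at most 0.00921). That of H2-Aa was lost without Irp1-/- replicate 1 or Irp2-/- replicate 2 (adjusted p = 0.0727 and 0.168). The call of H2-Eb1 was lost without Irp1-/- replicate 2 or 6 (0.0570 and 0.0507) or Irp2-/- replicate 1 or 2 (0.0504 and 0.102), and that of H2-Ab1 without Irp1-/- replicate 1, 2 or 6 (0.162, 0.0951 and 0.0658) or Irp2-/- replicate 1 or 2 (0.0882 and 0.271). In a fit of all 11 samples, which takes its spread from the WT samples too, none of the 4 was called between the knockouts (adjusted p = 0.382 for Cd74, 0.0959 for H2-Aa, 0.351 for H2-Eb1 and 0.352 for H2-Ab1, edgeR).

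Against WT, the log2 fold change of Cd74 in Irp2-/- testis was 0.60, at an adjusted p of 0.753 (edgeR). Without WT replicate 2 this became 1.01 (adjusted p = 2.0e-06), and H2-Eb1 was then also called, by 0.72 on the log2 scale (edgeR, adjusted p = 0.0287). That sample was singled out for its high values in these same genes. Leaving it out raises the fold change and narrows the WT spread by selection, so these 2 p-values are not a fair test. Summed over the 7 genes, MHC class II reached 62.7 CPM in WT replicate 2, beside 34.2 to 36.9 CPM in the other WT, 35.2 to 40.4 CPM in Irp1-/- and 46.0 to 53.8 CPM in Irp2-/- testis. WT replicate 2, highest among WT for 7 of the 10 macrophage genes, was thus also the sample with the most MHC class II transcript.

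**Figure D4:**
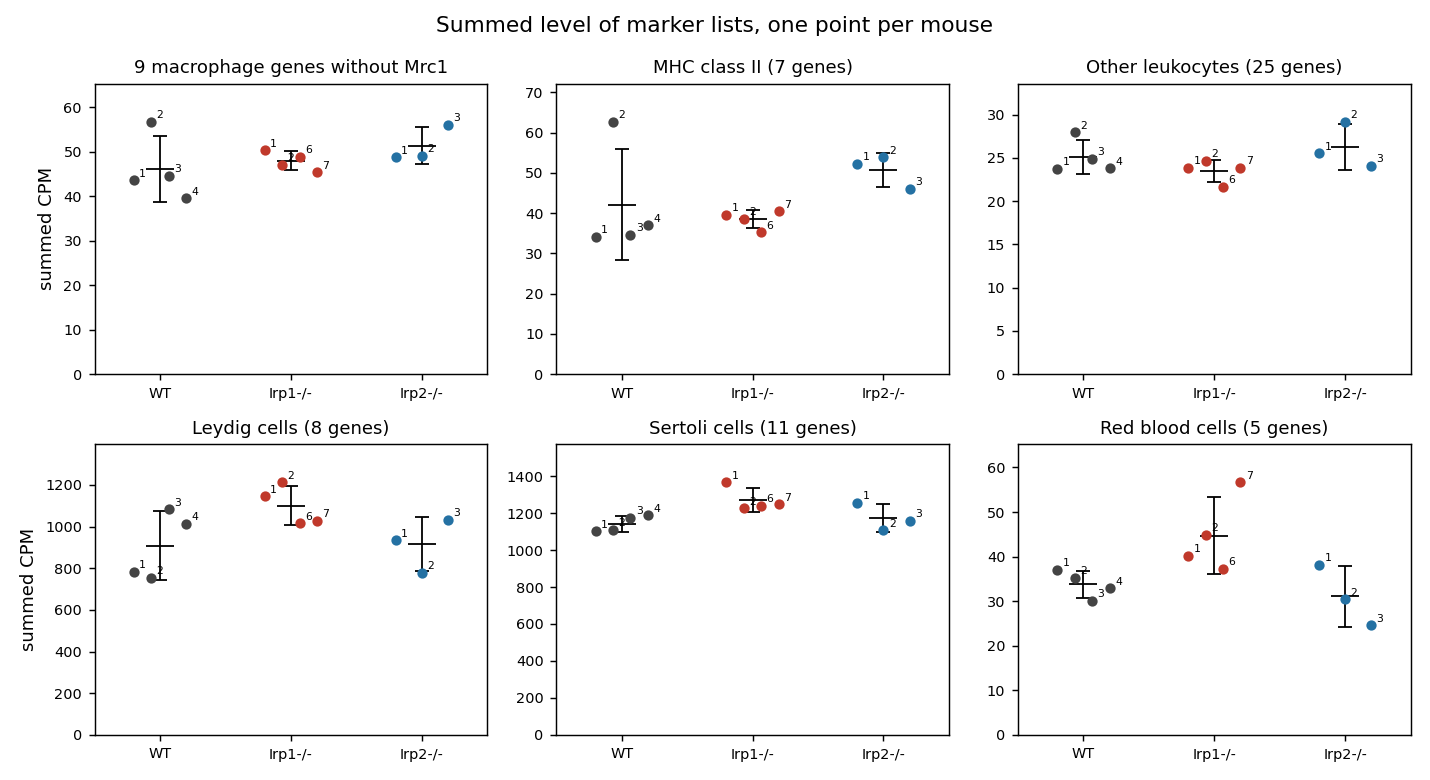
Summed CPM (y axis, linear from 0, own scale in each panel) of 9 macrophage genes without Mrc1 and of 5 marker lists, with points for samples, their replicate numbers, and lines for the mean ± SD. WT replicate 2 lies apart from the other WT samples for the macrophage and MHC class II sums, and the red blood cell sum is highest in Irp1-/- replicate 7.

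Markers of other cells were summed in the same samples to show what else moved. Other leukocytes (T, B and NK cells, neutrophils, mast cells, monocytes and dendritic cells) gave 23.7 to 28.0 CPM in WT, 21.6 to 24.6 in Irp1-/- and 24.1 to 29.2 in Irp2-/- testis over 25 genes. Only 8 of these passed the filter, 10 had at most 3 reads in every sample, among them Cd3g, Cd79b, S100a8, S100a9 and Ncr1, and none was called by edgeR or DESeq2, with 1, 1 and 0 at an unadjusted p under 0.05 by edgeR in the 3 comparisons. WT replicate 2 was the highest WT sample of this list too. Red blood cell genes gave 30.1 to 37.1 CPM in WT, 37.2 to 56.7 in Irp1-/- and 24.6 to 38.2 in Irp2-/- testis, and Hbb-bs, 1 of the 5, was at 0 in every sample. None of the 2 or 3 that were tested was called by edgeR or DESeq2, and none had an unadjusted p under 0.05 by edgeR. Epididymal genes gave 2.70 to 4.52 CPM over all samples, with 5 of 7 at no more than 3 reads in every sample.

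Among the somatic cells of the testis, Leydig cell genes gave 753 to 1084 CPM in WT, with WT replicates 1 and 2 lowest at 782 and 753, then 1015 to 1213 in Irp1-/- and 778 to 1033 in Irp2-/- testis. Of 8 Leydig genes, edgeR called 1 and DESeq2 2 higher in Irp1-/- than in WT (edgeR 0 without WT replicate 2 or Irp1-/- replicate 1 or 7), none in Irp2-/- against WT (1 at an unadjusted p under 0.05, none by DESeq2, and 1 by edgeR without Irp2-/- replicate 3) and 2 higher in Irp1-/- than in Irp2-/- testis (0 without Irp1-/- replicate 6 or Irp2-/- replicate 2, and 1 or 3 without any other sample). Sertoli cell genes gave 1102 to 1187 CPM in WT, 1225 to 1367 in Irp1-/- and 1107 to 1257 in Irp2-/- testis, and edgeR called 1, 0 and 3 of 11 in the 3 comparisons (DESeq2 1, 0 and 0), those called being higher in Irp1-/-. The Sertoli call against WT was lost without WT replicate 1, 2 or 3 or Irp1-/- replicate 1 or 6, and between the knockouts 0 to 2 were called when any single sample was left out, with 0 without Irp1-/- replicate 1 or Irp2-/- replicate 2 and 1 without Irp1-/- replicate 2. In Irp2-/- against WT none of the Sertoli genes had an unadjusted p under 0.05 by edgeR. Endothelial genes gave 43.7 to 46.0 CPM in WT, 42.5 to 44.9 in Irp1-/- and 49.5 to 52.5 in Irp2-/- testis, and 1 of 7, Vwf, named after its values were seen, was called higher in Irp2-/- than in either other group by edgeR and DESeq2, and the edgeR call against WT was lost without Irp2-/- replicate 2 or WT replicate 3. Peritubular myoid genes gave 320.5 to 340.3 CPM in WT, 332 to 352 in Irp1-/- and 298 to 341 in Irp2-/- testis, with 1 of 6 called, between the knockouts, a call that held only without Irp1-/- replicate 6 or Irp2-/- replicate 1 when single samples were left out. Spermatocyte genes gave 1166 to 1210 CPM in WT, 1120 to 1147 in Irp1-/- and 1137 to 1204 in Irp2-/- testis, so that all Irp1-/- samples lay below all WT samples, and 6 of 7 genes had a fold change below 0 in that comparison. Sums of other lists separated the other way, with all Irp1-/- samples above all WT samples. These were Sertoli cells, red blood cells, CD14 and TLR4 signalling, and scavenger receptors with iron recycling. Spermatogonial genes gave 99.0 to 115 CPM in WT, 100.4 to 113 in Irp1-/- and 105 to 123 in Irp2-/- testis, and spermatid genes 15541 to 16342, 14903 to 17545 and 13001 to 15941 CPM. For these 3 germ cell lists, with 7 genes each, none was called by edgeR or DESeq2 in any comparison, and at most 3 of 7 had an unadjusted p under 0.05 by edgeR. The part of these cell types in the levels of the macrophage genes was not tested.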

How the data were processed

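Decapsulated testes of mice aged 20 weeks were used, and 4 WT, 4 Irp1-/- and 3 Irp2-/- samples were grouped by their labels. The authors deposited raw read counts per gene, without normalization, aligned to mm10 and counted by the nf-core workflow for RNA-seq. The submitters' processing notes name bcl2fastq 2.20.0.422 and DESeq2. The counting tool is not given in the sources used here, so the whole numbers could be rounded estimates. In the column names, Irp1-/- replicate 6 is marked R and all other samples L, without a stated meaning. Calls of named genes lost without that replicate are given.

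From the deposited counts, each pair of genotypes was fitted alone with edgeR 4.0.16 in R 4.3.3 (filterByExpr, TMM, robust quasi-likelihood test, Benjamini-Hochberg adjustment over all genes tested, threshold 0.05). Standard errors are the log2 fold change over the root of F. DESeq2 1.42.0, the tool of the study, was an alternative, as were RLE normalization, no count filter, at least 10 counts in every sample, a fit of all 11 samples, a replicate block and leaving out each sample in turn. Log2 CPM used a prior count of 2. Exon lengths were the union of GENCODE exons on GRCm38, and promoters and positions came from RefSeq GRCm38.p6, the assembly of mm10. The fit was tested on simulated data. Total counts of 15902473 to 22451417 limit the precision of counting. The intervals of the log2 fold changes come from the edgeR fit and include the spread between samples as well as counting error.

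The macrophage genes, the pathway lists and the marker lists were chosen with earlier results of these data known. Outside the 10 genes and the targeted genes, the text names list genes with an adjusted p under 0.05, the gene of smallest p in a list with none, and the 5 genes most alike, of which 1 is not reported here, beside genes named to say what a list holds.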

Additional observations from a re-analysis of the deposited data

Results flagged for a closer look

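Values were searched for samples far from the rest of their group in 84 sets of 4 samples, by Dixon's test at the 95% level. It marked 9 sets, where chance gives about 1 in 20, or 4.2. No cause was tested.

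Among the macrophage genes, Mrc1 had 40.7 CPM in Irp1-/- replicate 7, beside 35.9 to 36.6 CPM in the other Irp1-/- samples. C1qc had 7.66 CPM in WT replicate 2, beside 5.40 to 5.52 CPM in the other WT samples. Cx3cr1 had 4.14 CPM in WT replicate 3, beside 3.26 to 3.36 CPM.

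Of the other genes and lists, Cd74 had 21.2 CPM in WT replicate 2 (others 8.05 to 9.31), H2-Ab1 14.9 CPM (others 7.99 to 8.502) and the summed MHC class II genes 62.7 CPM in the same sample (others 34.2 to 36.9). Lrp1 had 53.0 CPM in Irp1-/- replicate 2 (others 47.7 to 48.5). The summed genes of CSF1R ligands and lineage factors had 43.6 CPM in WT replicate 3 (others 34.0 to 35.5), and the summed Sertoli cell genes had 1367 CPM in Irp1-/- replicate 1 (others 1225 to 1247).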

How the results depend on the processing

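No macrophage gene was called under any of the alternatives run, in 394 values, of which 26 changed direction. With all 11 samples in one fit the log2 fold change of C1qa in Irp1-/- against WT was 0.00045, and with at least 10 counts in every sample 0.0026. Leaving out each replicate in turn, directions changed in Irp1-/- against WT for C1qa (-0.10 to 0.22), C1qc (-0.16 to 0.0623), Cd14 (-0.20 to 0.22), Cd163 (-0.45 to 0.0761), Cd68 (-0.0827 to 0.13) and Csf1r (-0.0698 to 0.11), in Irp2-/- against WT for Cd14 (-0.47 to 0.44) and Cd163 (-0.33 to 0.19), and between the knockouts for Cd14 (-0.40 to 0.52). Over these fits the median log2 fold change of the 10 genes lay between -0.04 and 0.09 in Irp1-/- against WT, between 0.12 and 0.28 in Irp2-/- against WT (0.28 without WT replicate 2) and between -0.17 and -0.08 between the knockouts. Over all genes, 55 to 216 were called in Irp1-/- against WT instead of 164 (55 without Irp1-/- replicate 1, 102 without Irp1-/- replicate 6, 84 without WT replicate 2 and 106 without WT replicate 4), 118 to 223 in Irp2-/- against WT instead of 196 (118 without Irp2-/- replicate 2) and 414 to 763 between the knockouts instead of 763 (471 without Irp1-/- replicate 1 and 414 without Irp2-/- replicate 2). Depth limits Cd14 most, with 5 to 24 reads per sample. The cause of these shifts was not tested, beyond the smaller number of samples.

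The replicate numbers did not pair the samples: deviations of samples with the same number correlated by -0.01 to 0.0778. Irp1-/- shares only replicate numbers 1 and 2 with WT and with Irp2-/-. In those comparisons the genotype effect under a replicate block thus rests on replicates 1 and 2 of each genotype, with little left to estimate the spread. With the replicate block, 439, 132 and 852 genes were called in the 3 comparisons, and no macrophage gene, and the median log2 fold change of the 10 genes was -0.0538, 0.15 and -0.0263. Under it, Cd68 between the knockouts was -0.17. C1qb (-0.0699) and Cd14 (-0.17) in Irp1-/- against WT and C1qc (0.0581) between the knockouts changed direction, and Aco1, Lbp, Cd59a, Ncf1 and H2-Eb1 lost their call (adjusted p = 0.314, 0.0511, 0.277, 0.170 and 0.0727, edgeR). In the comparison of Irp2-/- with WT, replicates 1 and 2 of Irp2-/- correlated best with their own number and replicate 3 did not.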
